A study of Sorghum bicolor with 12 samples.

Results

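Leaves of watered and unwatered Sorghum bicolor seedlings were compared after both had been kept at 50°C for 3 h, so that the comparison asks what the loss of water added to a heat shock. The unwatered plants (labelled Heat&Drought, combined stress from here on) and the watered plants (heat) gave 3 arrays each. The plants were of the R16 variety, water was withheld from 14 days after sowing for 3 days, and the incubation at 50°C took place in the dark. The same design at 28°C, unwatered (drought) against watered plants (control), gave the other 6 of the 12 arrays. Samples were taken from young leaves and pooled over plants of a treatment, so that no array stands for a single plant. Each array was hybridized with 1 dye and carried probes for 28587 transcripts. The comparison covers the 21537 transcripts whose spots were all well above background on the 3 heat arrays or on the 3 combined stress arrays. Of these, 20024 were detected in this way on all 6 arrays, 1166 only on all 3 heat arrays and 347 only on all 3 combined stress arrays.

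Water shortage raises the hormone abscisic acid (ABA) in plants. In Arabidopsis, ABA bound to its receptors inhibits phosphatases of the PP2C family, which frees kinases such as OST1 to close stomata and to activate transcription factors that bind ABA response elements. The products of the genes that follow include LEA proteins and dehydrins, hydrophilic proteins that accumulate in drying tissue and seeds, and enzymes that make proline and soluble sugars. Heat shock acts largely through heat shock factors (HSFs), which activate the genes of heat shock proteins (HSPs), chaperones that bind or refold unfolded proteins. Symbols used here are those of the Arabidopsis genes to which the study's tables relate the Sorghum transcripts, and the roles given are background from that species. The study names OST1, ATAF1, MYB78, HAK5, MKK9 and MPK20 among genes changed only by combined stress. Identifiers here were joined through its drought and heat tables, so transcripts of these symbols may be others with the same annotation. OST1, ATAF1 and MYB78 here are rises of its drought table.

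Signals are background-subtracted intensities scaled so that the 75th percentile of every array is 2310, and a log2 ratio is combined stress over heat unless a temperature is named. A transcript was called when limma gave a Benjamini-Hochberg adjusted p under 0.05 over the 21537 transcripts and the log2 ratio was beyond 1 (2-fold). Arrays of equal replicate number lay on 1 slide and were treated as a pair. Before scaling, the combined stress arrays were dimmer, with median signals of 222 to 298 against 365 to 434 in heat, while the added spike-in RNAs gave similar signals in all groups. The share of spots well above background was 75% to 79.2% in combined stress and 76.7% to 84.4% in heat, and no spot was saturated. The median SD between replicates on the log2 scale was 0.41 in combined stress and 0.24 in heat. Leaf transcripts were present as labelled: PSBR and LHCB6, parts of photosystem II, and RCA, rubisco activase, were well above background on all 6 arrays. In RNA of whole leaves, a change in RNA per cell and a change in the share of a cell type cannot be told apart.

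Unwatered plants at 50°C had 1668 transcripts called higher (7.74% of those tested) and 1086 called lower (5.04%) than watered plants. The rises were the larger changes, with 552 over 4-fold and 98 over 16-fold, against 133 and 1 among the falls. A rule with no test, over 2-fold in the same direction in all 3 pairs, gave 890 rises (4.13%) and 152 falls (0.706%), of which 853 and 116 were also called by limma. The pair of replicate 2 had the smaller ratios, with an SD of 0.6 over the 20024 transcripts against 1.0 and 1.2 in the other two. Of the called rises 995 were beyond 2-fold in that pair and 1547 and 1538 in replicates 1 and 3, and of the called falls 160 against 1001 and 1032. All 1668 rises and 1086 falls kept their direction when any 1 replicate was left out, which their selection on the same pairs made likely beforehand. The calls themselves were not all kept: without replicate 1, 69 rises and 2 falls were still called, without replicate 3, 724 and 100, and without replicate 2, 1484 and 987. A fit with no replicate block called 811 rises and 324 falls, a fit on the 6 heat and combined stress arrays alone 1178 and 335, and normexp background correction gave 774 and 625.

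The split between rises and falls rests on the scaling. With the 75th percentile 60.6% of the calls were rises, and the median log2 ratio was 0.00 over the transcripts detected on all 6 arrays. When the arrays were scaled by the spike-in RNAs instead, the median was -0.68, and 707 rises and 6419 falls were called, so that 9.92% of the calls were rises. All 707 rises were among those of the main scaling, and all 1086 falls were again called lower. Directions below are therefore relative to the bulk of the transcripts on an array.

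**Figure D1:**
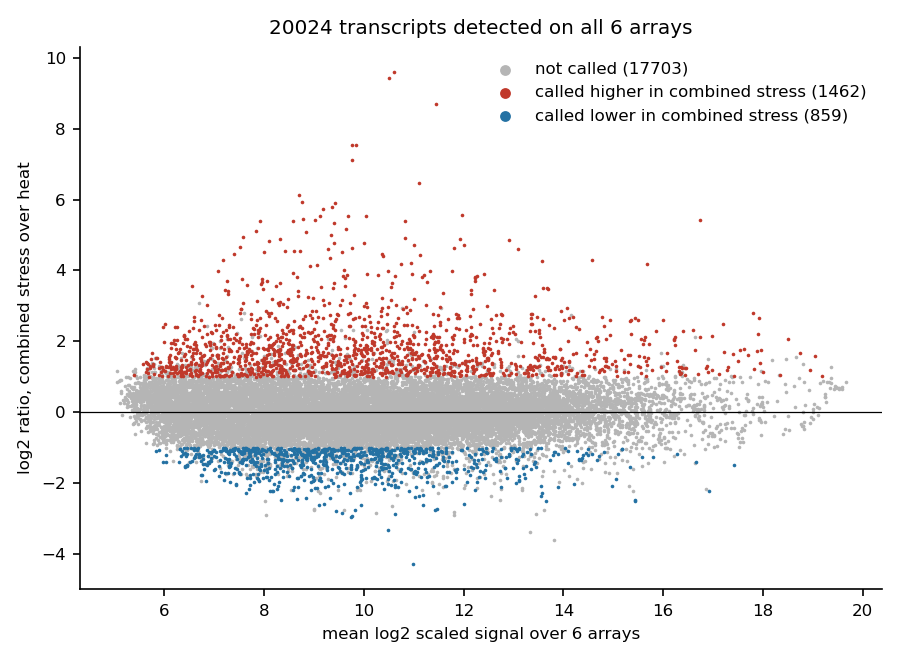
Log2 ratio of combined stress over heat (y axis) against the mean log2 scaled signal over 6 arrays (x axis) for the 20024 transcripts detected on all of them, each point a transcript. The 1462 called higher reach a log2 ratio of 9.61 and the 859 called lower extend to -4.30.

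LEA proteins and dehydrins made up the most raised of the 17 gene lists. Of 21 measured members 16 were called higher (76.2%, against 7.74% of all transcripts) and 0 lower. The median log2 ratio was 4.61, where the median over all 21537 transcripts was -0.01. With normexp background correction 11 were called higher and the median of the list was 2.56. A LEA transcript, Sb09g027110.1, had signals of 74.8, 51.5 and 45.4 in heat and of 40614, 19901 and 102355 in combined stress (log2 ratio 9.61, SE 0.52, adjusted p 3.3e-05). The 3 unwatered arrays thus lay far above all 3 watered ones. ECP63 (Sb03g011090.1), named after a protein of carrot embryos, went from 94.3, 56.9 and 75 to 14020, 4658 and 16855 (log2 ratio 7.13, SE 0.32, adjusted p 2.7e-05). The dehydrin RAB18 (Sb09g018420.1) was already bright in heat, at 22042, 11694 and 17917, and reached 940633, 389389 and 1011040 in combined stress (log2 ratio 5.43, SE 0.36, adjusted p 6.6e-05). LTI65 (Sb01g017695.1), an ABA-responsive gene of cold and drought in Arabidopsis, went from 99.1, 45.5 and 110 to 2426, 1273 and 12790, a log2 ratio of 5.43 (SE 0.46, adjusted p 0.00026).

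Replicate 2 gave the lowest of the 3 combined stress signals in each of the 4 transcripts above, and no heat signal reached it. The other 4 of the 16 rises were not detected on every heat array, so that a bound is given, which counts an undetected heat signal as no lower than the faintest detected one. Of these the LEA transcript Sb01g046490.1, well above background on 1 of 3 heat arrays, was at least 143-fold higher, and the dehydrin XERO1 (Sb10g003700.1), on 0 of 3, at least 53.4-fold higher. The 5 members not called were Sb02g028010.1, ERD10, 2 of the 3 SAG21 transcripts and GEA6, with log2 ratios from -0.44 to 1.25. The count of rises was 8, 16 and 15 without replicate 1, 2 or 3. The gene lists were drawn by words of the annotation from the study's tables of drought and heat changes, which were selected on these samples, so that they hold responsive members of each family rather than whole families. Of the joined heat table rises 13.8% were called higher and 6.37% lower, and of the measured drought table rises 65.5% were called higher. The share of all transcripts is therefore not a like reference for these lists. Of the 23 listed LEA transcripts 20 came from the drought table, which was selected on the drought and control arrays. Their direction is therefore not independent evidence about the family as a whole. In the lists with 0 members called lower, between 0 and 4 had a negative ratio at an unadjusted p under 0.05.

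**Figure D2:**
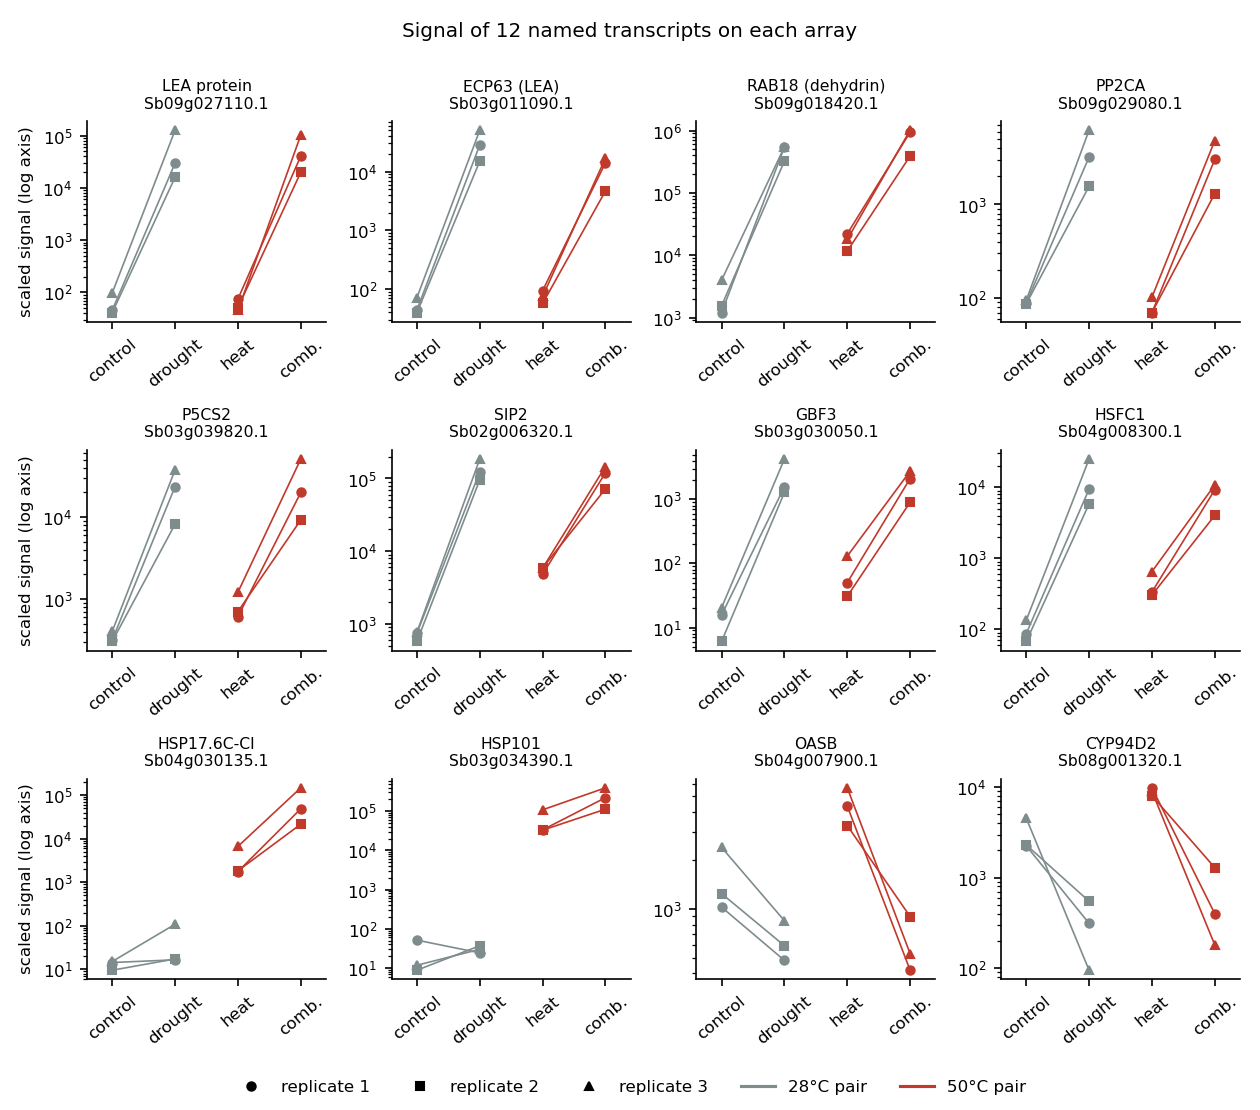
Scaled signal (log y axis) of 12 named transcripts on the control, drought, heat and combined stress arrays, with lines joining arrays of the same replicate number. ECP63 was 94.3 or less in heat and 4658 or more in combined stress, while OASB and CYP94D2 fell in all 3 pairs.

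Transcripts of the core of ABA signalling were also called higher. Of 25 measured members of the list of ABA synthesis, breakdown and signalling 16 were called higher and 1 lower, with a median log2 ratio of 1.91. The shares were 64% and 4%, against 7.74% and 5.04% of all transcripts. With normexp background correction 12 were called higher and 2 lower, with a median of 1.05. The phosphatase PP2CA, a negative regulator of ABA signalling, was represented by Sb09g029080.1, with 69.8, 69.9 and 102 in heat and 3032, 1305 and 4822 in combined stress (log2 ratio 5.08, SE 0.35, adjusted p 8.6e-05). A further transcript annotated as PP2CA (Sb03g029890.1), well above background on 0 of 3 heat arrays, rose by at least 10.9-fold. HAB1 (Sb06g001720.1), a phosphatase of the same family, went from 121, 145 and 298 to 6090, 2828 and 4702, with a log2 ratio of 4.64 (SE 0.37, adjusted p 0.00018). The kinase OST1 (Sb01g028760.1) went from 271, 218 and 355 to 6282, 1141 and 9666, with a log2 ratio of 3.90 (SE 0.47, adjusted p 0.002). In all of these the watered and unwatered signals did not overlap.

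Genes for making and for breaking down ABA were both higher. NCED3 (Sb01g013520.1), which carries out a rate-limiting step of ABA synthesis, had a log2 ratio of 3.05 (SE 0.43, adjusted p 0.0038), and ABA4 (Sb03g007320.1), which acts earlier in the path, of 2.13. CYP707A1 (Sb04g030660.1), a hydroxylase that inactivates ABA, had a log2 ratio of 1.69 and was also called, whereas CYP707A4 (Sb02g026600.1), of the same family, was at -1.71 and was not. The member called lower was Sb04g027020.1, a GRAM domain protein annotated as ABA-responsive (-2.06). The rises numbered 3, 15 and 15 without replicate 1, 2 or 3. PP2CA and HAB1 passed in each case, and OST1 was not called without replicate 1.

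Osmolyte and sugar genes rose in part. P5CS2 (Sb03g039820.1), which catalyses the first step of proline synthesis, had signals of 610, 702 and 1210 in heat and 19917, 9206 and 50906 in combined stress (log2 ratio 4.71, SE 0.40, adjusted p 0.00025). A tyrosine decarboxylase transcript (Sb03g035800.1) went from 310, 207 and 362 to 2063, 1005 and 1814 (log2 ratio 2.45, adjusted p 0.00067). Its control signals were 3075, 2102 and 3390, so that combined stress stayed below control in every replicate. P5CS2 and this transcript were the 2 called members of the 6 in the list of proline and amines (33.3%, against 7.74% of all transcripts). The others had log2 ratios of 0.53 to 2.94. Neither was called without replicate 1.

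In the list of sugars and starch 7 of 15 members were called higher (46.7%, against 7.74% of all transcripts) and 0 lower (median log2 ratio 1.13). BAM1, a beta-amylase that releases maltose from starch, was represented by Sb01g019850.1, with 211, 50.1 and 384 in heat and 3667, 2360 and 5560 in combined stress (log2 ratio 4.51, SE 0.36, adjusted p 0.00018), and by Sb01g047500.1 with a log2 ratio of 2.29 (adjusted p 0.0068). SIP2 (Sb02g006320.1), of a family that cleaves raffinose-type sugars, went from 4831, 5905 and 5846 to 119642, 71847 and 145813, a log2 ratio of 4.29 (SE 0.23, adjusted p 3.3e-05). The vacuolar invertase ATBETAFRUCT4 (Sb04g000620.1), which splits sucrose, went from 452, 218 and 1588 to 3256, 4572 and 3436 (log2 ratio 2.78, adjusted p 0.014). GolS1 (Sb01g037090.1), galactinol synthase, was among the bright transcripts of heated leaves, at 214719, 265466 and 350544, and at 550834, 291724 and 639892 in combined stress. These signals overlapped, and the log2 ratio of 0.79 was not called (95% interval -0.34 to 1.92, adjusted p 0.28). This list had 2, 8 and 4 rises without replicate 1, 2 or 3.

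Of 13 water channels (aquaporins) 2 were called higher (15.4%, against 7.74% of all transcripts): BETA-TIP (Sb06g023240.1), a channel of the vacuole membrane that was well above background on 2 of 3 heat arrays and was at least 4.39-fold higher (but had a log2 ratio of -0.04 with normexp background correction), and NIP4;2 (Sb04g028020.1), with 686, 1045 and 1210 in heat and 1765, 2797 and 2756 in combined stress (log2 ratio 1.32, adjusted p 0.0071). NIP4;2 was not called without replicate 1 or 3. The other 11 lay between -0.07 and 0.54, with 8 of them annotated as PIP2B, 6 of which have neighbouring identifiers from Sb02g010760.1 to Sb02g010830.1 and may share probe signal. The median of the list was 0.33, and -0.35 with spike-in scaling. At 28°C, 10 of the 13 were called higher in drought (median 1.79), but 9 of the 13 were annotated through the drought table, which was selected on those arrays, and for no member was the difference between the temperatures called.

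At the leaf surface, 11 of 22 members of the list of lipid transfer and wax were called higher and 0 lower. The share called higher was 50%, against 7.74% of all transcripts, and the median log2 ratio was 1.10. A lipid transfer protein transcript (Sb09g027600.1) had 756, 646 and 666 in heat and 5091, 2949 and 16003 in combined stress (log2 ratio 3.18, adjusted p 0.0054). CER1 (Sb01g019590.1) and CER3, which together form the alkanes of cuticular wax, were higher as well. CER1 went from 412, 290 and 400 to 2375, 1106 and 9262 (log2 ratio 3.00, adjusted p 0.0041). All 4 CER3 transcripts were called, led by Sb04g005330.1 with 135, 68.7 and 221 in heat and 1241, 299 and 2643 in combined stress (log2 ratio 2.97, adjusted p 0.0029). By contrast the transcripts of the fatty acid elongase family KCS were split, with KCS20 (Sb01g046290.1), well above background on 2 of 3 heat arrays, at least 6.11-fold higher and the 6 others between -1.15 and 0.88 and not called. Without replicate 1, 2 or 3 the rises numbered 0, 11 and 7, and with normexp background correction the median fell to 0.13.

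Cell wall genes moved in both directions, 13 of 31 higher and 3 lower (41.9% and 9.68%, against 7.74% and 5.04% of all transcripts). The expansin EXPB4 (Sb01g013550.1), of a family that loosens cell walls, had 2054, 1389 and 969 in heat and 13058, 3989 and 16960 in combined stress (log2 ratio 2.77, adjusted p 0.0089). A polygalacturonase transcript (Sb03g013330.1), for an enzyme that degrades pectin, went from 32.1, 30.7 and 36.9 to 184, 140 and 208 (log2 ratio 2.40, adjusted p 0.00067). Transcripts annotated as PGIP1, an inhibitor of such enzymes, had ratios of -1.39, -1.27 and -1.14, of which that of Sb09g000450.1 was called lower. The list's median of 0.77 became -0.11 with normexp background correction, and 0 members were called higher without replicate 1.

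Among 11 ion transport transcripts 2 were called higher and 2 lower (18.2% each, against 7.74% and 5.04% of all transcripts). HKT1 (Sb06g027900.1), a sodium transporter, had 28.2, 32.5 and 22.3 in heat and 728, 78.5 and 585 in combined stress (log2 ratio 3.56, SE 0.73, adjusted p 0.015), and HAK5 (Sb06g014930.1), a high-affinity potassium transporter, had a log2 ratio of 1.20 (adjusted p 0.039). KAT1 (Sb04g008780.1), a channel through which potassium enters guard cells, fell from 2110, 3192 and 2692 to 639, 1773 and 247 (log2 ratio -2.01, adjusted p 0.03). KCO2 (Sb03g032020.1), a potassium channel, fell from 336, 232 and 506 to 172, 141 and 92.8 (log2 ratio -1.38, adjusted p 0.045). None of the 4 was called without replicate 1 or without replicate 3.

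**Figure D3:**
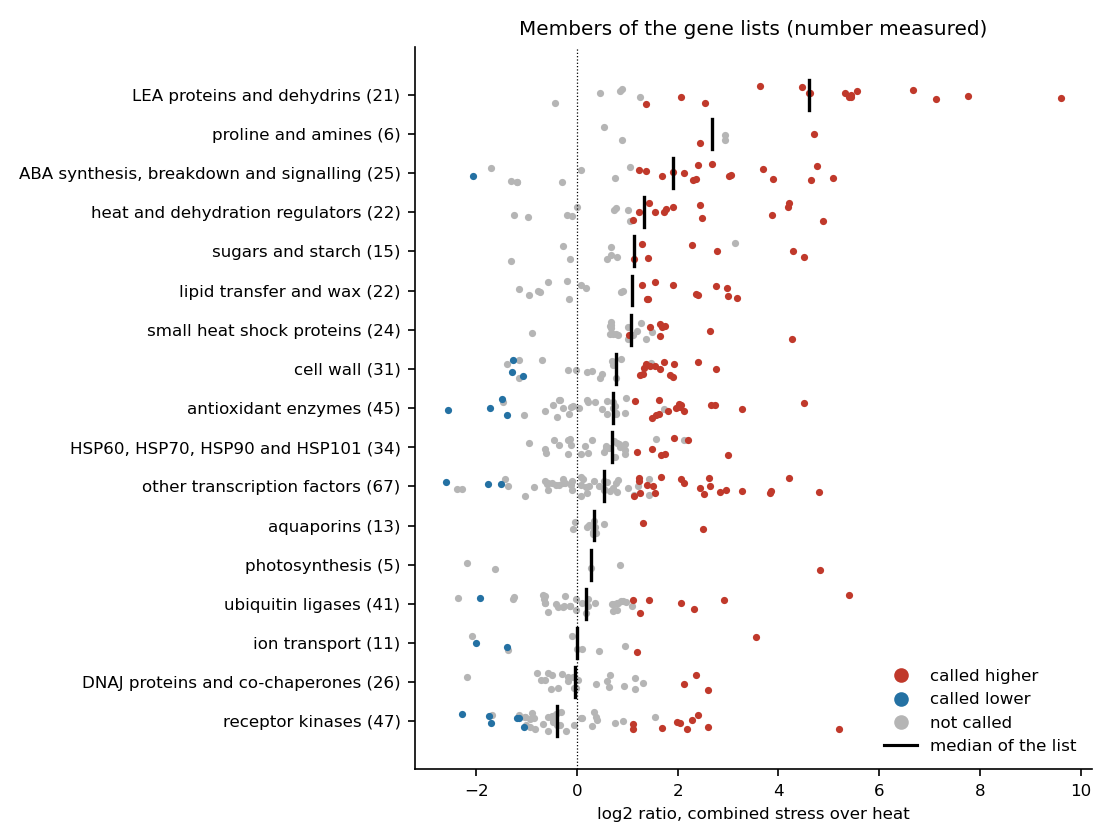
Log2 ratio of combined stress over heat (x axis) for every measured member of 17 gene lists, 1 row per list ordered by median, with the median as a bar and called members coloured. The list of LEA proteins and dehydrins has the highest median, 4.61, and that of receptor kinases, -0.40, is 0.02 over members detected on all 6 arrays.

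A minority of the HSP transcripts were called higher in unwatered plants. Of 24 small HSPs, chaperones that hold unfolded proteins in solution, 8 were called higher and 0 lower. The share called higher was 33.3%, against 7.74% of all transcripts and 13.8% of the joined heat table rises. A positive ratio was found in 23, and the median log2 ratio was 1.07 (0.39 with spike-in scaling, where 3 were called higher and 1 lower). HSP17.6C-CI (Sb04g030135.1) had 1770, 1844 and 6684 in heat and 48878, 21661 and 148234 in combined stress (log2 ratio 4.27, SE 0.45, adjusted p 0.001). HSP17.4-CIII (Sb04g035130.1) went from 10402, 13729 and 38713 to 93373, 70772 and 206302 (log2 ratio 2.65, adjusted p 0.0045), and HSP18.2 (Sb03g006920.1) from 113454, 102989 and 238319 to 506622, 287298 and 709167 (log2 ratio 1.74, adjusted p 0.012). Heat replicate 3 was the highest of the watered arrays in all 3, and combined stress replicate 3 the highest of the unwatered ones. HSP22.0 (Sb06g017850.1), of the secretory system, was not called, with 208773, 166300 and 287590 against 750647, 399967 and 751816 (log2 ratio 1.5, 95% interval 0.32 to 2.68, adjusted p 0.071). Several HSP18.2 transcripts are tandem neighbours of similar sequence, and their probes may share signal.

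Of the 34 larger chaperones 7 were called higher and 0 lower. The share called higher was 20.6%, against 7.74% of all transcripts and 13.8% of the joined heat table rises. The median log2 ratio was 0.69, while spike-in scaling gave 3 higher and 5 lower and a median of 0.01. BIP1 (Sb01g010460.1), an HSP70 of the endoplasmic reticulum, went from 1426, 1334 and 4387 to 13898, 8569 and 34827 (log2 ratio 2.99, SE 0.57, adjusted p 0.012). HSC70-2 (Sb01g039436.1), of the cytosol, went from 16167, 10408 and 43335 to 96751, 33948 and 218341 (log2 ratio 2.21, adjusted p 0.006). Its groups overlapped, because heat replicate 3 lay above combined stress replicate 2, yet each pair rose. HSP101 (Sb03g034390.1), which pulls proteins out of aggregates, had 33181, 32651 and 107858 in heat and 220075, 111932 and 392591 in combined stress (log2 ratio 2.12, 95% interval 0.65 to 3.6), just outside the threshold at an adjusted p of 0.051. A further transcript annotated as HSP101 (Sb09g025900.1) was called at 1.66. HSP90.1 (Sb06g000660.1) was not called at 1.56 (95% interval 0.45 to 2.67, adjusted p 0.054). The chaperonins of chloroplasts and mitochondria (CPN and HSP60) lay between -0.95 and 0.57, none of them called.

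Among 26 DNAJ proteins and co-chaperones, which deliver proteins to HSP70, 3 were called higher and the median was -0.03. The share was 11.5%, against 7.74% of all transcripts and 13.8% of the joined heat table rises. With spike-in scaling 3 were called higher and 7 lower. BAG5 (Sb05g018030.1) went from 7202, 8282 and 34307 to 55453, 49950 and 164525 (log2 ratio 2.60, adjusted p 0.012), and the DNAJ transcripts Sb07g014620.1 and Sb09g028410.1 had log2 ratios of 2.36 and 2.13. Without replicate 1, 0 of the small HSPs, 0 of the larger chaperones and 0 of the co-chaperones were called, and without replicate 3, 4, 5 and 3. Nearly all of these transcripts were annotated through the study's heat table (23, 33 and 21 of them), which was selected on heat arrays of this comparison. A choice for high heat signals by itself lowers the ratio of combined stress to heat.

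Of the regulators of heat and dehydration responses, 13 of 22 members were called higher (59.1%, against 7.74% of all transcripts) and 0 lower. The median log2 ratio was 1.33, and 10 of the 24 listed came from the drought table. GBF3 (Sb03g030050.1), a bZIP factor that binds G-box elements, had 50.2, 30.7 and 130 in heat and 2116, 902 and 2752 in combined stress (log2 ratio 4.89, SE 0.26, adjusted p 3.1e-05). HB-7 (Sb04g033380.1), a homeodomain factor induced by ABA and water deficit, went from 345, 379 and 733 to 10411, 5879 and 9935 (log2 ratio 4.21, SE 0.30, adjusted p 0.0001). HSFC1 (Sb04g008300.1), a heat shock factor of class C, went from 335, 304 and 651 to 9242, 4015 and 10798 (log2 ratio 4.19, SE 0.27, adjusted p 6.6e-05). RAP2.4 (Sb01g044410.1), an AP2 factor of the DREB family, went from 337, 517 and 1347 to 9853, 6131 and 12334, a log2 ratio of 3.88 (SE 0.45, adjusted p 0.0016). All 4 were called whichever replicate was left out.

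Among the HSFs, an HSFA6B transcript (Sb01g021490.1, log2 ratio 1.76), HSFB2A (Sb06g025710.1, 1.90) and both HSFB2B transcripts (Sb02g030490.1, 1.55, and Sb07g025120.1, 1.43) were called higher. The study lists another HSFA6B transcript among its largest rises in heat and in combined stress, and that transcript is not described here. HSFA2 (Sb10g022340.1), a strongly heat-induced factor, had 1.05 and was not called (adjusted p 0.19), and HSFA3 (Sb04g021490.1) had -1.25, also not called. MBF1C (Sb10g023010.1), a coactivator needed for heat tolerance in Arabidopsis, was called at 1.73 (SE 0.24, adjusted p 0.0038). Without replicate 1, 2 or 3 the rises of the list numbered 4, 11 and 12.

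Of 67 other transcription factors 21 were called higher and 3 lower (31.3% and 4.48%, against 7.74% and 5.04% of all transcripts). The median log2 ratio was 0.54, and -0.14 with spike-in scaling. A fit on only transcripts detected on all 6 arrays called 18 of 58 higher and 1 lower. The homeodomain factor ATHB40 (Sb01g043910.1) was well above background on 1 of 3 heat arrays and was at least 20.4-fold higher in combined stress. MYB78 (Sb08g018370.1) went from 477, 561 and 277 to 12624, 3001 and 5700 (log2 ratio 3.84, adjusted p 0.0088), and a bHLH transcript (Sb09g006220.1) from 82.0, 563 and 177 to 3824, 2067 and 3113 (log2 ratio 3.85, adjusted p 0.014). NAC factors, many of which respond to drought and ABA, included 3 transcripts annotated as ANAC025 (2.64, 2.96 and 3.27) and NAP (2.07), all called. ATAF1 (Sb09g020750.1), a NAC factor that the list does not hold, had 7179, 7418 and 9612 in heat and 25324, 15794 and 28284 in combined stress (log2 ratio 1.49, adjusted p 0.025). WRKY27 (Sb09g029850.1) ran the other way, from 437, 408 and 458 to 39.8, 258 and 35.4, and was well above background on 2 of 3 combined stress arrays (log2 ratio -2.60, 95% interval -4.09 to -1.12, adjusted p 0.028). Normexp background correction left 9 of this list called higher and 2 lower, with a median log2 ratio of 0.09. Without replicate 1 only 1 transcript of this list was called.

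Among 45 antioxidant enzymes 15 were called higher and 4 lower (33.3% and 8.89%, against 7.74% and 5.04% of all transcripts). A fit on only transcripts detected on all 6 arrays called 14 of 39 higher and 2 lower. The median log2 ratio was 0.72, and the rises and falls lay within the same families. Of the peroxidases, Sb06g033850.1 (PER12) went from 106, 320 and 441 to 1077, 1128 and 3669 (log2 ratio 2.74, SE 0.34, adjusted p 0.0025). Its control signals were higher still, at 2598, 2806 and 4313. Sb01g020830.1, well above background on 2 of 3 heat arrays, was at least 16.2-fold higher, while Sb01g007230.1 had a ratio of -2.56 and was called lower. Of the glutathione transferases annotated as GSTU18, Sb01g030790.1 was called higher (log2 ratio 3.27, adjusted p 0.013) and Sb01g030990.1 lower (-1.49). APX3 (Sb06g001970.1), an ascorbate peroxidase, had 18150, 15378 and 26166 in heat and 53698, 23591 and 64389 in combined stress (log2 ratio 1.16, adjusted p 0.019). Its groups overlapped, but all 3 pairs rose. Without replicate 1, 2 or 3 the count of rises was 0, 18 and 2.

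The ubiquitin ligases, which mark proteins for degradation, had 7 of 41 members called higher (17.1%, against 7.74% of all transcripts) and 1 lower (2.44%, against 5.04%). The median log2 ratio was 0.19. Of the 48 listed, 36 are in the heat table, where 13.8% of the joined rises and 16.1% of the joined falls were called higher. Spike-in scaling gave 4 higher and 10 lower and a median of -0.49. An F-box transcript (Sb07g026340.1) went from 190, 458 and 257 to 20135, 4194 and 19432 (log2 ratio 5.39, SE 0.72, adjusted p 0.0031). A RING finger transcript (Sb02g040220.1) was bright in both groups, with 113126, 161143 and 334912 in heat and 867832, 530203 and 977196 in combined stress (log2 ratio 2.07, adjusted p 0.014). Without replicate 1, 0 members were called.

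Further large rises included 3 transcripts outside the gene lists. NADP-ME1 (Sb03g034280.1), a malic enzyme, was well above background on 1 of 3 heat arrays and reached 9210, 3179 and 27597 in combined stress, at least 433-fold higher. A mitochondrial Tim17/Tim22 import subunit (Sb01g037560.1) went from 80.9, 40.2 and 79.1 to 14990, 4351 and 25574 (log2 ratio 7.54, SE 0.45, adjusted p 5e-05). A DC1 domain transcript (Sb03g036980.1) went from 196, 323 and 204 to 24356, 14325 and 25184 (log2 ratio 6.46, SE 0.43, adjusted p 7e-05). These 3 were called whichever replicate was left out. ELIP1 (Sb02g004380.1), a chlorophyll-binding protein of stressed chloroplasts, went from 58.5, 36.9 and 62.9 to 1001, 776 and 4045 (log2 ratio 4.83, adjusted p 0.003), and was not called without replicate 1. It was the only one called of the 5 members of the photosynthesis list (20%, against 7.74% of all transcripts). LHCB6 (Sb06g032690.1) had 5626, 7373 and 5857 in heat and 1964, 7116 and 602 in combined stress (log2 ratio -1.62, adjusted p 0.087), so that replicate 2 was near the watered level and the others were below it.

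The falls were smaller than the rises, and smallest in the pair of replicate 2. CYP94D2 (Sb08g001320.1), a cytochrome P450, had the largest fall among transcripts detected on all 6 arrays, from 9857, 8059 and 9028 in heat to 401, 1293 and 181 in combined stress (log2 ratio -4.30, SE 0.67, adjusted p 0.0059). OASB (Sb04g007900.1), an enzyme of cysteine synthesis in plastids, fell from 4352, 3294 and 5650 to 417, 898 and 529 (log2 ratio -2.89, SE 0.32, adjusted p 0.0014). A short-chain dehydrogenase (Sb01g038050.1) fell from 5673, 7456 and 4461 to 1124, 1897 and 388 (log2 ratio -2.61, adjusted p 0.039). In each of these the groups did not overlap. A leucine-rich repeat kinase (Sb07g027920.1), at 820, 927 and 960 in heat, was well above background on 1 of 3 combined stress arrays, with 43.3, 257 and 16.1, and was at least 13.4-fold lower.

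Further falls included a pentatricopeptide repeat protein (Sb02g038430.1), of a family that processes organelle RNA, from 1582, 1485 and 1365 to 288, 809 and 90.5 (log2 ratio -2.42, adjusted p 0.014). An AP2 factor (Sb01g045050.1) fell from 865, 484 and 527 to 245, 170 and 50.3 (log2 ratio -2.24, adjusted p 0.019), and a uracil DNA glycosylase (Sb06g032610.1), a DNA repair enzyme, from 638, 587 and 657 to 152, 401 and 40 (log2 ratio -2.22, adjusted p 0.03). None of these 7 falls was called without replicate 1, and the AP2 factor, the pentatricopeptide repeat protein and the glycosylase were also not called without replicate 3. Only 147 of the 1086 called falls could be joined to an identifier, against 792 of the 1668 rises, so that the named falls are a small part of the whole.

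Of the 47 receptor kinases 10 were called higher and 6 lower (21.3% and 12.8%, against 7.74% and 5.04% of all transcripts). The median log2 ratio was -0.40, or 0.02 over the 36 detected on all 6 arrays. A fit on only transcripts detected on all 6 arrays called 9 of these 36 higher and 3 lower. The other members entered through 1 group alone. The lectin kinase RLK (Sb02g009170.1), not well above background on any heat array, was at least 12.3-fold higher, and EFR (Sb08g021950.1), which in Arabidopsis senses a bacterial protein, had 131, 130 and 217 in heat and 990, 396 and 1388 in combined stress (log2 ratio 2.40, adjusted p 0.0033). On the other side WAK3 (Sb03g022080.1), a wall-associated kinase, had a log2 ratio of -2.28, and 2 of the 4 transcripts annotated as CRK10, a cysteine-rich receptor kinase, had -1.75 and -1.18 and were called lower. With normexp background correction 3 of the list were called higher and 1 lower. Without replicate 1, 0 of the list were called in either direction.

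Where only 1 group was well above background, the change has a bound and no measured size. Of the 347 transcripts detected on all 3 arrays of combined stress alone 206 were called higher, and of the 1166 detected on all 3 of heat alone 227 were called lower. These transcripts entered the comparison through the group in which they were brighter, and the counts say nothing beyond that. MKK9 (Sb01g010180.1), a kinase of the MAP kinase cascade, had 88.2, 52.2 and 30.5 in heat and 24.6, 13.6 and 18.0 in combined stress, where no array was well above background, at least 1.84-fold lower but not called (adjusted p 0.13). MPK20 (Sb03g030450.1), a MAP kinase, was measured in both groups and was not called either, at a log2 ratio of 1.17 (95% interval 0.30 to 2.04, adjusted p 0.061). Neither need be the transcript of that symbol that the study reports for combined stress alone.

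The same loss of water at 28°C, drought against control, was estimated from the other 6 arrays, with the replicate block and the variance shared in 1 fit of all 12. It gave 1531 of the 21537 transcripts called higher (7.11%) and 688 lower (3.19%). Called higher at both temperatures were 815 transcripts, 48.9% of the rises at 50°C and 53.2% of those at 28°C. Called lower at both were 135, or 12.4% and 19.6%. Of the rises at 50°C 9 were called lower at 28°C, and of the falls 1 was called higher. The log2 ratios at the 2 temperatures had a Pearson correlation of 0.67 over the 19239 transcripts detected on all 12 arrays, which lay on the same 3 slides and share their probes.

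**Figure D4:**
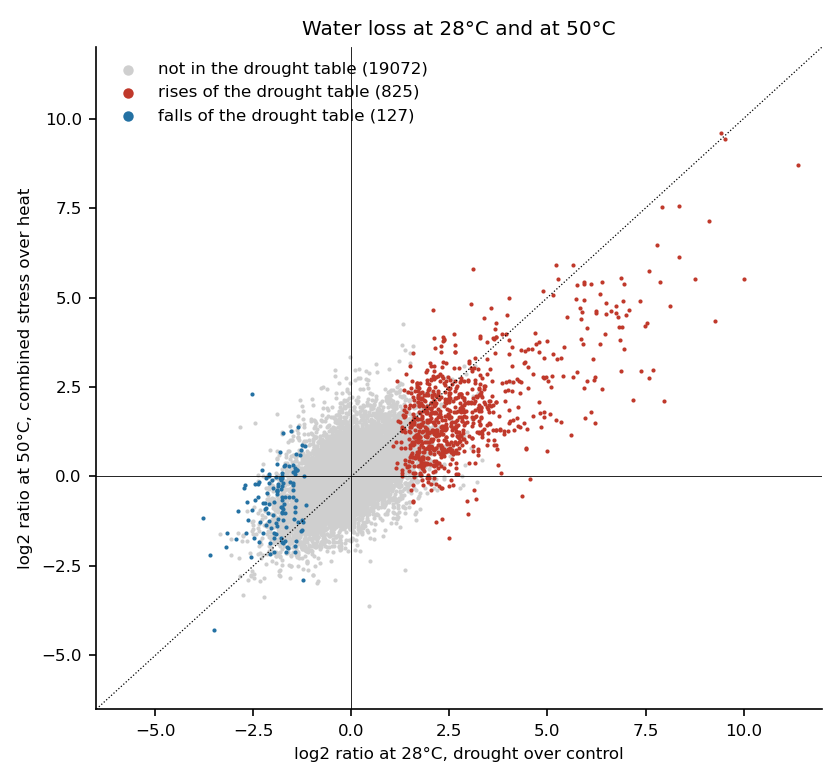
Log2 ratio of unwatered over watered plants at 50°C (y axis) against that at 28°C (x axis) for 20024 transcripts, with transcripts of the study's drought table coloured and the dotted line marking equal ratios. Rises of the drought table lie mostly above 0 on the y axis, and many of the largest lie below the dotted line.

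The study's own drought table, transcripts beyond 2-fold in all 3 drought replicates at 28°C, can be followed at 50°C. Of its 964 joined rises 919 were measured here, of which 602 were called higher and 0 lower (1 at an unadjusted p under 0.05), with a median log2 ratio of 1.79. Of the 222 falls 173 were measured, of which 41 were called lower and 3 higher, with a median of -0.84. A fit on only the transcripts detected on all 6 arrays called 516 of 825 rises higher, with a median of 1.66. Of 127 falls it called 27 lower and 1 higher, with a median of -0.71. With normexp background correction 367 rises were called higher and 27 falls lower, with medians of 1.06 and -0.92. By pair the median of the rises was 2.07, 1.13 and 2.08 in replicates 1, 2 and 3, and that of the falls was -0.81, -0.50 and -1.37. Without replicate 1, 2 or 3, 66, 654 and 383 of the rises and 0, 44 and 11 of the falls were called. At 28°C the medians were 2.5 and -1.89, which the selection of the table itself set.

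**Figure D5:**
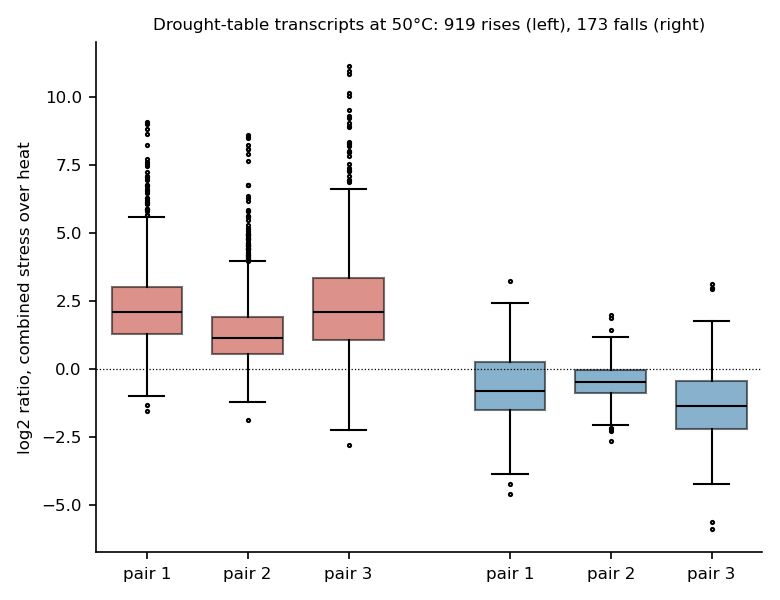
Log2 ratio of combined stress over heat (y axis) in each of the 3 pairs for 919 rises (left) and 173 falls (right) of the drought table, with boxes from the lower to the upper quartile, the median as a line, whiskers to the last value within 1.5 box heights and points beyond them. The median of the rises is 2.07, 1.13 and 2.08 and that of the falls -0.81, -0.50 and -1.37.

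The ratios at both temperatures can be set side by side where a transcript was detected on all 12 arrays. The LEA transcript Sb09g027110.1 had a log2 ratio of 9.61 at 50°C and 9.43 at 28°C, PP2CA (Sb09g029080.1) 5.08 and 5.13, OST1 3.90 and 3.68 and CER1 3.00 and 3.22. RAB18 had 5.43 and 7.88 and HSFC1 4.19 and 6.91. HSC70-2 had 2.21 and 0.17, and GolS1 0.79 and 4.45. None of these differences between temperatures passed the test of the difference itself, with adjusted p-values of 0.056 for HSFC1 and 0.12 or more for the others. GBF3 and HKT1 were well above background on 0 of 3 control arrays and were at least 110-fold and 27.1-fold higher in drought. HSP17.6C-CI and BIP1 were well above background on 0 of 3 control and 1 of 3 drought arrays, so that their change at 28°C was not measured.

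That test, the effect of water loss at 50°C minus the effect at 28°C, called 12 of the 21537 transcripts, 5 higher (0.0232%) and 7 lower (0.0325%), and 3601 had an unadjusted p under 0.05. Those not named above were chosen after their values were seen. SIP2 (Sb02g006320.1) had a log2 ratio of 4.29 at 50°C and 7.55 at 28°C (difference -3.26, SE 0.33, adjusted p 0.035). HB-7 (Sb04g033380.1) had 4.21 and 7.48 (difference -3.27, adjusted p 0.05 after rounding), and EDL3 (Sb09g024255.1), an F-box regulator of ABA signalling in Arabidopsis, 1.79 and 6.12 (difference -4.32, adjusted p 0.046). EDL3 had signals of 22.2, 36 and 43.5 in control and 1754, 1770 and 3748 in drought. It had 4798, 11370 and 10739 in heat and 36050, 31485 and 21415 in combined stress, where it was brightest. SIP2 and HB-7 were brighter in drought than in combined stress in every replicate, with 123348, 95608 and 184907 and with 17965, 9376 and 35563 in drought. The transferase Sb03g040180.1 had 712, 828 and 1495 in heat and 9480, 9078 and 10922 in combined stress, a log2 ratio of 3.35 at 50°C and -0.04 at 28°C (difference 3.4, SE 0.32, adjusted p 0.035). Its control signals were 5827, 4150 and 10648, above those in heat. Leaving out replicate 1, 2 or 3, at most 1 of the 12 calls was left, and none was made without the replicate block.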

How the data were processed

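Agilent Feature Extraction 10.7.3.1 gave the deposited intensities per spot, background-subtracted by the authors' software and not normalized between arrays. The other deposited columns, spot type and flags (other), were used as given. The authors also deposited log2 values from GeneSpring GX, which were found to be centred on each probe's median over the 12 arrays; they served as an alternative and to join identifiers.

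Log2 of the processed signal minus the array's 75th percentile over non-control spots was averaged over spots of a probe, without outlier spots. For 108 transcripts with several probes the brightest on average was used. The fit (limma 3.58.1, R 4.3.3) took all 12 arrays with the replicate number (the slide) as a block and 1 variance per transcript over the 4 groups, two-sided, with Benjamini-Hochberg adjustment. Deviations of same-numbered heat and combined stress arrays from their group means correlated at 0.27, 0.40 and 0.25, and over all pairs of groups 17 of 18 correlations exceeded 0.1 (lowest 0.04). The methods describe 3 biological replicates. The p-values rest on the spread that remains after the replicate block, pooled over the 4 groups. The number of arrays limits the precision.

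Bounds set the brighter group's mean against the mean of, per array of the dim group, the higher of the lowest detected signal and the transcript's own. The array files name transcripts by annotation numbers. Sb identifiers and annotations were joined for 2965 transcripts (2570 annotated) by matching the fold changes in the study's drought and heat tables, used only as a key, to ratios of the deposited values within 2e-05 on the log2 scale. The heat tables were read in part, and the unread rows are not used here. The members and gene lists were chosen with earlier results of these data known.

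Named transcripts were the 10 largest called rises and falls detected on all 6 arrays and the 5 largest bounds each way, with an identifier. Added to these were the 4 largest called changes in each gene list and at most 2 without an identifier each way. Joined transcripts annotated with a symbol named in the study's results were also included. Not all of them are described. Scripts were tested on simulated arrays. Alternatives were another background correction (normexp, offset 50, on median signals), 3 scalings, the deposited table, fits with no block, with array position or on 6 arrays, other filters, and leaving out each replicate.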

Additional observations from a re-analysis of the deposited data

Results flagged for a closer look

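For 12 transcripts the effect of water loss differed between 50°C and 28°C by a test of that difference (limma, adjusted p 0.035 to 0.05 after rounding). For 7 the log2 effect was lower at 50°C, with differences of -5.88 in Sb01g038670.1 (a hydrophobic low temperature and salt responsive protein), -4.71 in Sb05g003200.1 (ATC), -4.47 in Sb10g028640.2, -4.46 in Sb04g019550.1 (disease resistance-responsive family), -4.32 in EDL3 (Sb09g024255.1), -3.27 in HB-7 (Sb04g033380.1) and -3.26 in SIP2 (Sb02g006320.1). For 5 it was higher at 50°C, with differences of 2.15 in Sb09g010410.1, 2.48 in PACid1959831, 3.33 and 3.35 in Sb05g025660.2 and Sb05g025660.1 (2 transcripts of 1 aminotransferase gene) and 3.4 in Sb03g040180.1 (a transferase). Of the 12, 6 were detected on all 12 arrays. The sizes of the others rest in part on signals not well above background: in control for Sb10g028640.2 (0 of 3 arrays detected) and Sb05g003200.1 (1 of 3), in drought for PACid1959831 (2 of 3), in heat for Sb05g025660.1 and Sb05g025660.2 (1 of 3), and in control, drought and combined stress for Sb04g019550.1.

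Sb01g038670.1 had 266, 177 and 312 in control and 57906, 28262 and 145810 in drought. It had 49868, 63899 and 46868 in heat and 324781, 200727 and 183427 in combined stress, where it was brightest. Its log2 ratio was 2.11 at 50°C against 7.98 at 28°C. Sb04g019550.1 was the only one of the 12 called lower at 50°C. It had 44.4, 33.2 and 98 in heat, was not well above background on any combined stress array and was at least 1.86-fold lower there. At 28°C it was detected on 0 of 3 control and 1 of 3 drought arrays, so that its change there was not measured. The aminotransferase, detected on 1 of 3 heat arrays, was at least 4.08-fold higher at 50°C and called lower at 28°C (-1.19), but its ratio at 50°C was -0.16 with normexp background correction, where those of Sb05g025660.2 and Sb09g010410.1 were -0.10 and -0.43.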

How the results depend on the processing

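The deposited table (1656 rises and 1116 falls), median scaling and kept outlier spots left the counts of calls at 50°C within 1.5 times. Normexp gave 774 rises and 625 falls at 50°C, 414 falls at 28°C, a median log2 ratio of -0.22, 448 and 57 by the fold rule and 1 and 0 calls of the difference between temperatures. Quantile normalization gave 1 higher call of that difference and a median of -0.05. Spike-in scaling gave 707 and 6419, with 435 falls at 28°C, a median of -0.68, 318 and 2942 by the fold rule and 9 and 336 calls of the difference. With no replicate block 811 and 324 were called, with 952 and 187 at 28°C and 0 and 0 for the difference, and 28 of the 114 named transcripts lost their call. Only the 6 arrays gave 335 falls and have no value for the difference. No filter gave 0 and 0 for the difference and 399 falls at 28°C. The filter to transcripts detected on all 6 arrays gave 3 higher calls of the difference and 88 falls by the fold rule. Array position gave 0 and 0 for the difference. The adjusted p alone gave 1837 falls. Fold rules of 1.5 and 3 gave 1881 and 969, and 380 and 19. Leaving out a replicate gave 69 to 2018 rises and 2 to 1628 falls at 50°C, 226 to 1915 and 6 to 1311 at 28°C, 1002 to 1863 and 197 to 1635 by the fold rule, and 0 to 0 and 0 to 1 for the difference. Where a call was lost the cause was not tested.

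Direction reversed under normexp in Sb06g023240.1 (-0.04), Sb05g025660.1 (-0.16), Sb05g025660.2 (-0.10) and Sb09g010410.1 (-0.43), and for PSBR (Sb02g002830.1) under quantile (-0.16) and spike-in scaling (-0.40). Array weights were not run to a value, because the fit with the block did not converge. Promoter motifs were not run. Signals near background limit the sizes of the bounds.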
